A study of Mus musculus with 6 samples.

Results

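Complex I (NADH:ubiquinone oxidoreductase) is the largest enzyme of the respiratory chain. It takes electrons from NADH in the mitochondrial matrix, passes them along iron-sulfur clusters to ubiquinone in the inner membrane, and pumps protons as it does so. In brown adipose tissue (BAT) the proton gradient built by the chain is spent as heat through UCP1. The enzyme is shaped like an L. Its matrix arm holds the flavin and the iron-sulfur clusters and its membrane arm holds the proton pumps, whose central subunits are encoded by mitochondrial DNA and are not among the genes described here. Nuclear genes supply the other subunits, and a set of assembly factors builds the enzyme in modules without staying in it.

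Of the 23282 gene rows counted in each library, 49 were complex I genes: every nuclear Ndufa, Ndufab, Ndufb, Ndufc, Ndufs and Ndufv gene except Ndufa4, which is now placed with complex IV, the Ndufaf assembly factors, and the factors Acad9, Ecsit, Foxred1, Nubpl, Timmdc1 and Tmem126b. They were chosen by name and not by their counts, but with earlier results of these data known. The 36 subunits comprised 19 of the membrane arm, 16 of the matrix arm and Ndufab1, the acyl carrier protein that sits in both arms. The other 13 were assembly factors. Ndufb1 and Ndufaf8 were not listed under those symbols. All 49 members passed the filter on low counts, which 12995 genes passed in all.

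The tissue was the whole interscapular BAT depot of male C57BL/6N mice at 5 weeks of age, from 3 wild-type (WT) mice and 3 Letmd1 KO mice. The KO mice were homozygous for a null allele in which a lacZ and neomycin cassette disrupts Letmd1, made from 1 embryonic stem cell clone and present in every tissue, not only in brown adipocytes. LETMD1 is a mitochondrial protein enriched in brown adipocytes, and the comparison asks how the transcripts of BAT differ without it. RNA was measured by QuantSeq, which sequences 1 tag near the 3′ end of each transcript, so that counts do not grow with transcript length and the tag levels of different genes can be set side by side, apart from differences in how well each 3′ end is captured and aligned.

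The totals ran from 6669577 to 14574273 counts per mouse. Levels are given as CPM, counts put on a common library size with edgeR's TMM factors, and 3 counts amounted to between 0.176 and 0.397 CPM. The lowest count of any member in any mouse was 52, so no member lay near that floor. Letmd1 itself had 5658, 6490 and 5266 counts in the WT mice and 0, 0 and 1 in the KO mice, which matches the labels. BAT identity was checked with a list of 8 brown adipocyte markers, of which Adipoq and Plin1 are expressed in white adipocytes too. Ucp1 was at 6328 CPM in WT and 382 CPM in KO. By edgeR's quasi-likelihood test, 7 of the 8 were lower in KO, beside 22.3% of all genes tested. Skeletal muscle RNA stood apart in some libraries. The 15 muscle markers summed to 10.8, 406 and 8.74 CPM in the WT mice and 423, 309 and 1235 CPM in the KO mice, and 9 and 7 of the 15 had no count in WT 1 and WT 3.

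Every subunit of complex I was lower in Letmd1 KO BAT. All 36 passed edgeR's quasi-likelihood test (Benjamini-Hochberg adjusted p from 7.71e-06 to 0.000877), and for all 36 the KO mice lay below the WT mice without overlap. Of the 13 assembly factors, 10 passed and 12 did not overlap. No member was higher. Among all genes tested, 22.3% were lower and 23.7% higher by the same test, and 27.2% did not overlap with KO below WT, against 30.1% with KO above. In whole tissue, fewer brown adipocytes and less complex I RNA in each of them cannot be told apart.

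The summed level of the 36 subunits was 34008, 32585 and 33196 CPM in the WT mice and 13228, 12881 and 16009 CPM in the KO mice. The highest KO mouse lay far below the lowest WT mouse, and the KO mean was 42.2% of the WT mean. The same genes made up 2.91%, 2.89% and 2.82% of all counts in WT and 1.54%, 1.46% and 1.87% in KO, a share that uses no scaling factor. The median log2 fold change was -1.16 over the subunits and -0.72 over the assembly factors, beside 0.03 over all genes tested. With libraries scaled to their total alone, the median of all genes was 0.45 and the subunit median was -0.74, and all 36 subunits still passed. Under that scaling, 1368 of all 12995 genes passed as lower and 5899 as higher. In the KO group, mouse 3 had the highest level of 35 of the 36 subunits and also the most muscle marker RNA. In the WT group, the mouse with muscle RNA had the lowest summed subunit level. The part of muscle RNA in these levels was not tested beyond a fit with the muscle level as a covariate, in which all 36 subunits passed with a median of -1.22. All 36 also passed without KO 3 (median -1.27) and without WT 2 (median -1.20).

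**Figure D1:**
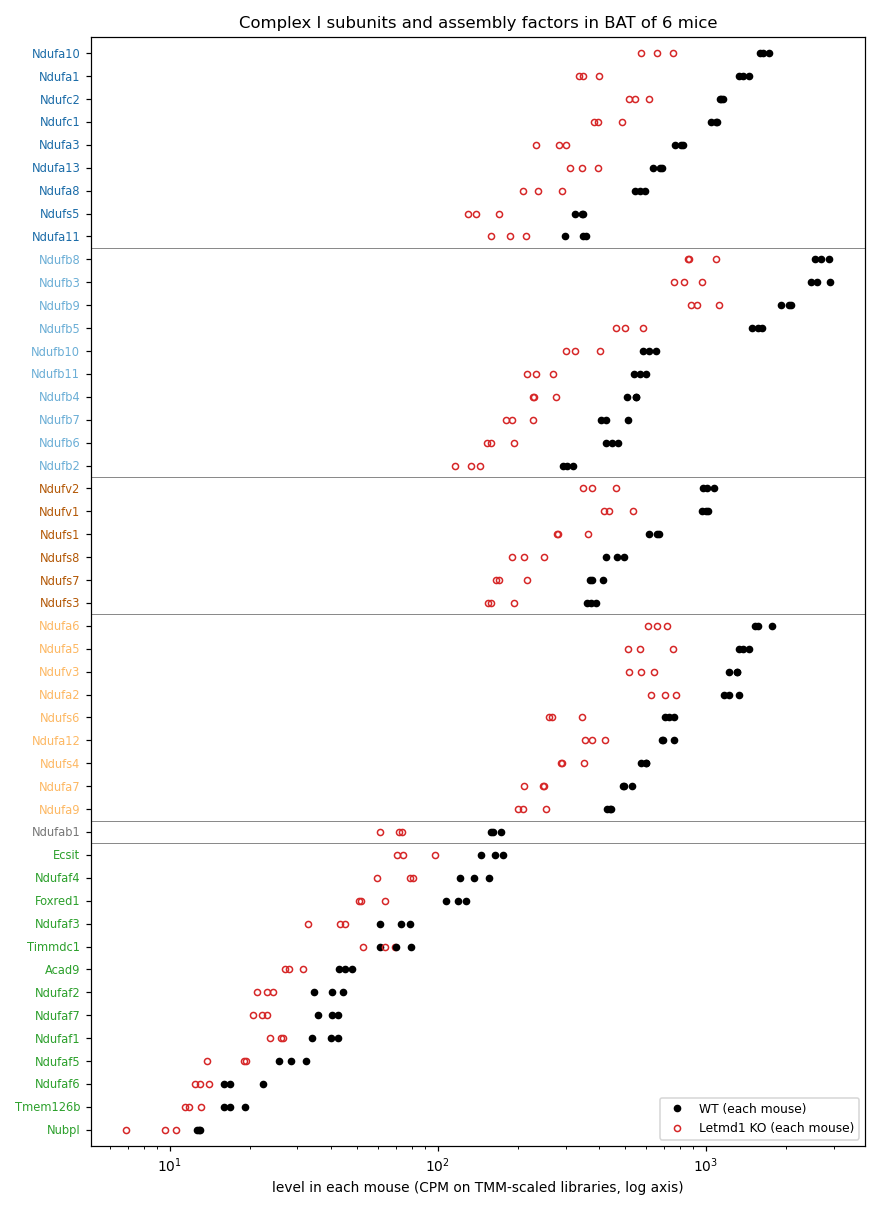
Level of 48 of the 49 members in each of the 6 mice, in CPM on a log axis, with WT mice as filled and Letmd1 KO mice as open circles. Rows are grouped by class and coloured as membrane arm proximal and distal (blues), matrix arm core and accessory (oranges), Ndufab1 (grey) and assembly factors (green). The genotypes are apart in every row but that of Timmdc1.

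Markers of some other cell types differed between the genotypes as well. All 11 macrophage markers and all 6 fibroblast markers were higher in KO, and summed macrophage markers ran from 170 to 238 CPM in WT and from 1356 to 3271 CPM in KO. The fibroblast markers summed to between 1369 and 1906 CPM in WT and between 3876 and 6674 CPM in KO. Of 5 nerve markers 4 were higher, of 6 endothelial markers 2 were lower and 1 higher, and of 5 erythroid markers none passed (edgeR's quasi-likelihood test). By the same test, 22.3% of all genes were lower and 23.7% higher, and the endothelial counts lay near these shares. The 8 brown adipocyte markers spread widely. Elovl3 was left at 4.37% of WT, Ucp1 at 6.04%, Dio2 at 18.1%, Cidea at 28.8%, Adipoq at 37.6%, Cox7a1 at 38.9% and Plin1 at 50.7%, while Ppargc1a was at 69.5% and did not pass. Subunits of complex I were left at between 26.1% and 56.6% of WT, with a median of 44.6%. The part of the tissue's cell makeup in the complex I levels was not tested.

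The 9 proximal subunits of the membrane arm lie next to the matrix arm, where the early membrane part of the enzyme is put together. Ndufa1, a small subunit with a single membrane span, changed most among the 49 members. It was at 1447, 1380 and 1334 CPM in WT and at 338, 350 and 399 CPM in KO. The 3 KO mice lay close together and far below every WT mouse, and the log2 fold change was -1.94 (SE 0.12, adjusted p = 7.71e-06, edgeR). That placed Ndufa1 at 265 when the 12995 tested genes are ranked from the most negative change. Its gene lies at chrX:37187588-37191163 on the minus strand (GENCODE vM21, GRCm38).

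Ndufa3 followed in the proximal group with a log2 fold change of -1.55 (SE 0.13), from 801 ± 26.1 CPM (SD, n = 3) to 273 ± 35.8. Ndufc1 was at -1.35, Ndufa10 at -1.32, Ndufa8 at -1.22, Ndufs5 at -1.21 and Ndufc2 at -1.03 on the same scale. Ndufa8 and Ndufs5 are among the subunits of the intermembrane face that carry twin cysteine motifs, and Ndufa10 resembles nucleoside kinases. The smallest proximal changes were those of Ndufa13, at -0.93, and Ndufa11, at -0.85 (SE 0.14, adjusted p = 0.000877). Ndufa11 was at 300, 349 and 357 CPM in WT and 158, 186 and 213 CPM in KO, so that even this member kept a gap between its highest KO and its lowest WT mouse. The proximal median was -1.22.

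The 10 distal subunits, the Ndufb genes, surround the outer proton pumps at the far end of the membrane arm. Ndufb3 was at 2908, 2611 and 2466 CPM in WT and at 833, 764 and 969 CPM in KO (log2 fold change -1.64, SE 0.14). Ndufb8, whose protein is often used as a marker of an assembled complex I, was at 2891, 2703 and 2555 CPM in WT and 863, 863 and 1094 CPM in KO (-1.53, SE 0.15). Ndufb5 was at -1.60 (SE 0.13). These were the 3 distal genes with the greatest change, and each lost about as much as Ndufa3 of the proximal group. At the other end, Ndufb10 was left at 55.8% of WT (log2 fold change -0.84, SE 0.13), Ndufb9 at 48.6% (-1.04, SE 0.14) and Ndufb4 at 45.3% (-1.14, SE 0.12). The distal median was -1.24. Ndufb9 encodes a member of the LYR family, whose proteins bind the acyl carrier protein, and it took the first rank in KO: Ndufb3 or Ndufb8 was the most abundant subunit transcript in each WT mouse, and Ndufb9 was in each KO mouse.

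The 7 core subunits of the matrix arm are the ancient catalytic part, with relatives in bacteria, and they carry the flavin and the iron-sulfur clusters. All 7 passed, with a median of -1.10, and Ndufv2 changed most among them, at -1.37. Ndufv1, which binds NADH and flavin, went from 995 ± 24.9 CPM (SD, n = 3) to 462 ± 63.3, and its partner Ndufv2 from 1024 ± 49.9 to 395 ± 59.1. Ndufs1, the subunit with the most iron-sulfur clusters, was left at 47.6% of WT. Ndufs8 was left at 46.7%, Ndufs7, which holds the last cluster before ubiquinone, at 47.4% and Ndufs3 at 45.0%. In each of the 7, more than 50% of the WT level was lost and the highest KO mouse was mouse 3.

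The 9 accessory subunits of the matrix arm spread a little more widely, from -1.33 to -0.82. Ndufs6, a zinc-binding subunit added late in assembly, was at -1.33 (SE 0.13), and Ndufa6, another LYR protein, at -1.30 (SE 0.13). Ndufa5 was at 1457, 1336 and 1381 CPM in WT and 571, 514 and 758 CPM in KO (-1.18, SE 0.16), the widest KO spread of the group. Ndufv3 changed by -1.14, Ndufa7 by -1.11, Ndufa9 by -0.99, Ndufs4 by -0.93 and Ndufa12 by -0.89. Ndufa2 changed least of all subunits, from 1241 ± 81.9 CPM (SD, n = 3) to 703 ± 76.7 (-0.82, SE 0.13, adjusted p = 0.000797, edgeR). After quantile normalization, the method named in the study, Ndufa2 was at -0.15 (adjusted p = 0.388, limma) and Ndufb9 at -0.20 (adjusted p = 0.237, limma), and the other 34 subunits passed. Of all 12995 genes, 3078 were lower by that method. Ndufab1 was the lowest subunit transcript in every mouse, at 172, 159 and 161 CPM in WT and 71.5, 60.9 and 73.6 CPM in KO (-1.25, SE 0.11), although the assembled enzyme holds more than 1 copy of its protein.

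**Figure D2:**
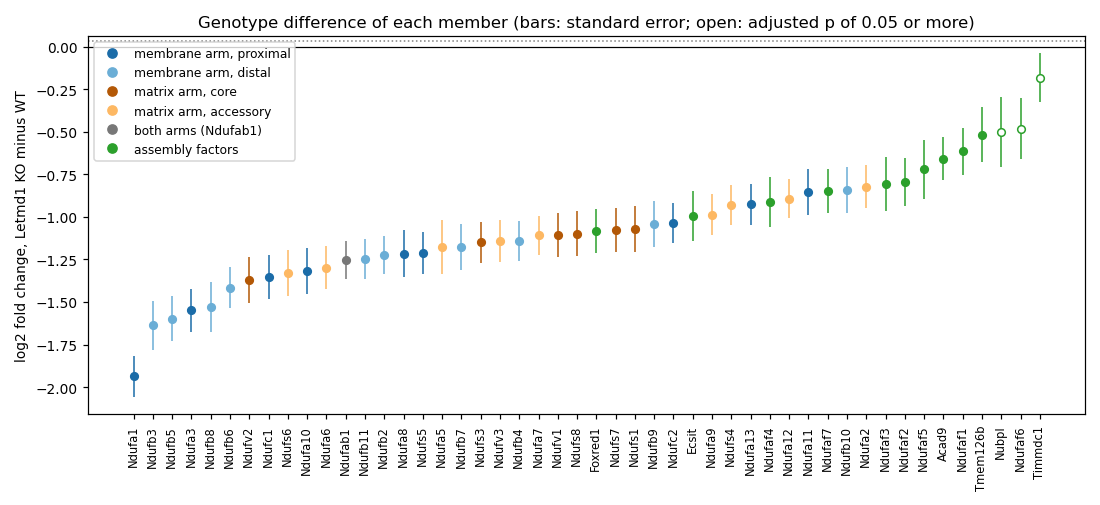
Log2 fold change of 48 of the 49 members, Letmd1 KO minus WT, from the most to the least negative, with standard errors as bars and colours by class. Filled points passed the test at an adjusted p of 0.05, open points did not, and the dotted line at 0.03 is the median of all genes tested. The subunits run from -1.94 to -0.82 and most assembly factors lie at the right.

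The order of subunit levels changed little while the levels fell. Across the 36 subunits, the mean level in WT and that in KO had a Spearman rho of 0.97 (Pearson r = 0.97 on log2 levels), a description over genes measured in the same libraries and sharing each gene's capture efficiency. The ratio of the highest to the lowest subunit ran from 15.8 to 17.0 in the WT mice and from 13.0 to 15.3 in the KO mice. The standard deviation of log2 level over the 36 subunits was 0.94 ± 0.03 (SD, n = 3) in WT and 0.88 ± 0.01 in KO, a little narrower in KO.

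The balance between the arms shifted. Membrane-arm genes gave 59.6%, 59.9% and 59.6% of all subunit counts in the WT mice and 55.8%, 55.8% and 55.7% in the KO mice. The means were 3.97 percentage points apart, with an SD of 0.19 points in WT and 0.06 points in KO (n = 3 each). Matrix-arm genes gave 39.9%, 39.6% and 39.9% in WT and 43.7%, 43.8% and 43.9% in KO. These shares are taken within a mouse, so library scaling does not enter them. On the log2 scale, the mean of the membrane-arm genes minus that of the matrix-arm genes was 0.12, 0.16 and 0.16 in WT and -0.04, -0.02 and -0.04 in KO. The medians of the fitted changes were -1.22 for the membrane arm and -1.10 for the matrix arm and their ranges overlapped.

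To see which members carried the shift, each gene was also tested with the libraries scaled to the summed counts of the 36 subunits, so that 0 means a change equal to that of the complex. The sum includes the gene itself. By this measure, 2.25% of all genes were lower and 82.8% higher. The subunits that were lower numbered 4 of 36, all of the membrane arm: Ndufa1 (-0.69, adjusted p = 0.000367), Ndufb3 (-0.39, adjusted p = 0.0135), Ndufb5 (-0.35, adjusted p = 0.0197) and Ndufb8 (-0.29, adjusted p = 0.0486), by edgeR's quasi-likelihood test. Higher than the complex were 6 of 36: Ndufa2 (0.43), Ndufb10 (0.40), Ndufa11 (0.39), Ndufa12 (0.36), Ndufa13 (0.32) and Ndufs4 (0.32), of which 3 belong to each arm. In 6 fits that each left out 1 mouse, Ndufa1 and Ndufa2 always passed, Ndufb3 and Ndufb10 in 4, Ndufb5, Ndufa11 and Ndufa12 in 3, and Ndufb8, Ndufa13 and Ndufs4 in 2.

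None of the 7 core subunits differed from the complex. The 4 lower genes gave 26.1%, 25.1% and 23.8% of subunit counts in WT and 19.2%, 18.9% and 19.0% in KO. Without them, the membrane arm gave 45.3%, 46.5% and 47.0% of the remaining subunit counts in WT and 45.3%, 45.4% and 45.2% in KO, and the genotypes overlapped. The mean log2 level of the other membrane-arm genes minus that of the matrix arm was -0.25, -0.17 and -0.16 in WT and -0.28, -0.24 and -0.27 in KO, again with overlap. The 4 were picked on these values, so this describes where much of the shift lay and is no test of it.

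**Figure D3:**
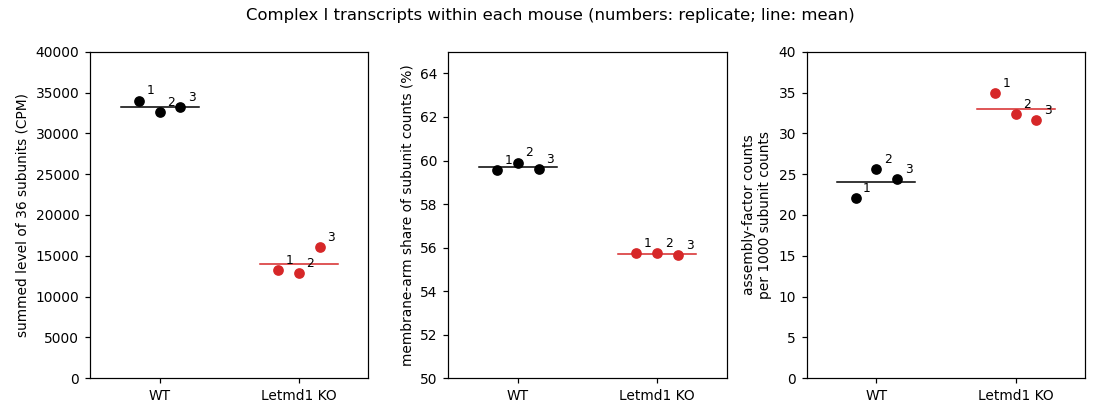
Panels with 1 point per mouse, numbered by replicate, and the mean of each genotype as a line: summed level of the 36 subunits in CPM, membrane-arm share of subunit counts in percent on an axis that starts at 50, and assembly-factor counts per 1000 subunit counts. WT and Letmd1 KO mice are apart in all panels, with means of 59.7% and 55.7% in the middle one.

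**Figure D4:**
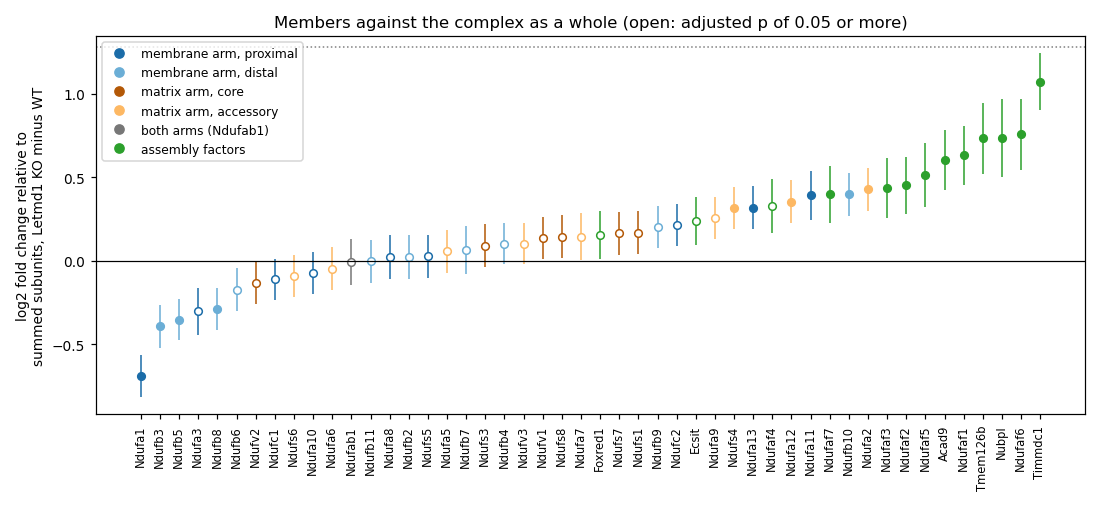
Log2 fold change of 48 of the 49 members relative to the summed counts of the 36 subunits, Letmd1 KO minus WT, with standard errors as bars and colours by class. Filled points passed the test at an adjusted p of 0.05, and the dotted line at 1.28 is the median of all genes tested. Ndufa1 lies at -0.69 on the left and Timmdc1 at 1.07 on the right.

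Assembly factors were much less abundant than subunits and fell less. They gave 22.1, 25.6 and 24.4 counts for every 1000 subunit counts in the WT mice and 34.9, 32.4 and 31.7 in the KO mice, again without overlap. Their WT means ran from 12.8 CPM for Nubpl to 161 CPM for Ecsit, below those of all subunits, the lowest of which was 164 CPM. The gap between subunits and factors depended on the normalization: after quantile normalization their medians were -0.77 and -0.74. With libraries scaled to their total alone, the factor median was -0.30 and 4 of 13 passed. Under that scaling, 1368 of all 12995 genes were lower and 5899 higher.

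Foxred1, a flavoprotein of late assembly, changed most among the factors. It was at 107, 127 and 119 CPM in WT and 52.0, 50.7 and 63.9 CPM in KO (-1.08, SE 0.13, adjusted p = 0.000155, edgeR), close to the median of the subunits. Ecsit changed by -0.99 (SE 0.15) and Ndufaf4, which works with Ndufaf3 on the early membrane-linked module, by -0.91 (SE 0.15). Ndufaf7, a methyltransferase, was at -0.85 and Ndufaf3 at -0.81. Ndufaf2, a relative of Ndufa12 that holds its place during assembly, was at -0.79, Ndufaf5, a hydroxylase of Ndufs7, at -0.72, Acad9 at -0.66, Ndufaf1 at -0.61 and Tmem126b at -0.52 (adjusted p = 0.0270). The gene listed as 1810043H04Rik, an older name of Ndufaf8 in RefSeq, was at 143 CPM in WT and 92.7 CPM in KO (-0.63, adjusted p = 0.00146).

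The factors that did not pass numbered 3 of 13. Timmdc1, a membrane-bound factor of the proximal membrane arm, was at 79.3, 69.7 and 60.9 CPM in WT and at 69.1, 52.7 and 63.4 CPM in KO. The genotypes overlapped, with a log2 fold change of -0.18 (SE 0.14, adjusted p = 0.331), and its sign turned to 0.24 with libraries scaled to their total alone (adjusted p = 0.192, edgeR). Ndufaf6 was at 16.0, 22.4 and 16.8 CPM in WT and 13.0, 12.4 and 14.0 CPM in KO (-0.48, SE 0.18, adjusted p = 0.0521). Nubpl, which delivers iron-sulfur clusters to complex I, was at 12.6, 12.8 and 13.0 CPM in WT and 10.6, 6.88 and 9.59 CPM in KO (-0.50, SE 0.21, adjusted p = 0.0736). Neither of these overlapped between genotypes, and both passed after quantile normalization (adjusted p = 0.0168 and 0.0197, limma).

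The factors Ndufaf1, Acad9, Ecsit and Tmem126b form the core of the mitochondrial complex I assembly complex, which builds the proximal membrane arm and with which Timmdc1 associates. Their changes were unequal, from -0.99 for Ecsit to -0.52 for Tmem126b, whose call was lost without WT 2 (adjusted p = 0.0988), KO 2 (adjusted p = 0.0613) or KO 3 (adjusted p = 0.0812). Relative to the summed subunits, 10 of 13 factors were higher, a share near the 82.8% of all genes. The count fell to between 6 and 9 when 1 mouse was left out, with the lowest count without KO 1. Ndufaf1, Ndufaf6, Acad9, Timmdc1 and Tmem126b passed in all 6 such fits, Nubpl in 5, Ndufaf2 and Ndufaf5 in 3, Ndufaf3 in 2 and Ndufaf7 in 1. The 3 that did not differ from the complex were Foxred1, Ecsit and Ndufaf4. Across the 13 factors the WT level and the log2 fold change had a Spearman rho of -0.70, and across the 36 subunits -0.29. The level and the change share the same WT libraries.

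Related genes were examined beside these members. Of 10 further genes of complex I or its assembly, or once assigned to it, 7 were lower, beside 22.3% of all genes. They were Ndufa4 at -1.59, Aifm1 at -1.39, Tmem70 at -1.15, Tmem186 at -1.09, Tmem261 at -0.80, Atp5sl at -0.79 and Chchd4 at -0.75. With libraries scaled to their total alone, Atp5sl (adjusted p = 0.0684, edgeR) and Chchd4 (adjusted p = 0.0601, edgeR) did not pass. Ndufa4l2 was at 0.07, Sfxn4 at 0.00 and Lyrm2 at -0.31, and none of them passed. Of 11 genes for the other routes of electrons into ubiquinone, 10 were lower, beside 22.3% of all genes, and the median was -1.04. Gpd2, which feeds electrons from glycerol 3-phosphate, went from 3285 to 496 CPM (-2.73, SE 0.14), a larger change than that of any complex I gene. Etfdh, the entry point for electrons from fatty acid oxidation, was at -1.68. The complex II genes ran from -1.43 (SE 0.29) for Sdhd to -0.97 (SE 0.14) for Sdha. Sdhd was uneven among the WT mice, at 478, 923 and 977 CPM. Prodh was at -0.29 (adjusted p = 0.330, edgeR). Some of these calls depended on the normalization. After quantile normalization, Sdha (-0.16, adjusted p = 0.414), Sdhb (-0.19, adjusted p = 0.318) and Etfb (-0.24, adjusted p = 0.211) did not pass (limma), while Sdhc and Sdhd did. With libraries scaled to their total alone, Dhodh (adjusted p = 0.802) and Sqrdl (adjusted p = 0.472) did not pass (edgeR), while all complex II genes did.

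**Figure D5:**
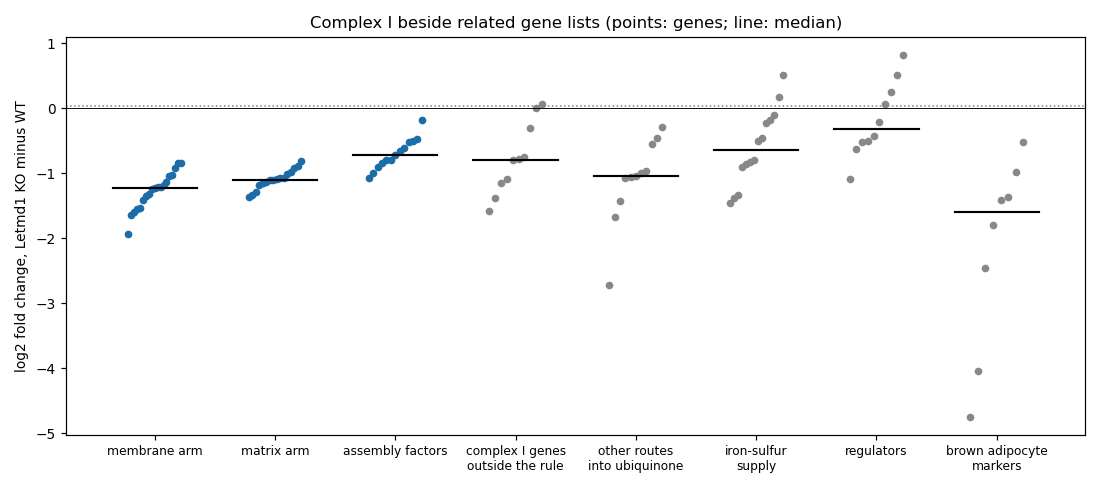
Log2 fold change, Letmd1 KO minus WT, of each tested gene (points) and the median (line) for the membrane arm, matrix arm and assembly factors of complex I in blue and for related gene lists in grey. The dotted line at 0.03 is the median of all genes tested. The medians are -1.22, -1.10 and -0.72 for complex I, -1.04 for other routes into ubiquinone and -1.61 for brown adipocyte markers.

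The 49 genes lie on 17 chromosomes and not in 1 region of the genome. To see what their promoters share, RefSeq promoter windows on GRCm38.p6 (250 bases before to 50 after the start) were searched on both strands. They were found for 32 subunits and 11 factors, and shares are set beside all 32851 windows. A member is counted once, as matched if any window of its gene holds the letters, while each of the 32851 windows is counted by itself. The shares are therefore not on quite the same base. The YY1 site AAGATGGC was in 7 subunit windows (21.9%) and in that of the factor Tmem126b (9.09% of factors), against 2.75% of all windows. In the 7 subunits and in Tmem126b it lay on the gene's own strand between 18 and 39 bases after the start, and in 8 of 8 genes its ATG was an annotated start codon. The matched letters are thus in part coding sequence, and a match is a description only. Each is shown as 30 bases 5′ to 3′ on the gene's strand, with the site in capitals, because it was the most frequent of the motifs searched among the subunits.
Ndufa3, chr7:3617384-3617413, plus strand: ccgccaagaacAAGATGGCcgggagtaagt
Ndufc1, chr3:51408915-51408944, minus strand: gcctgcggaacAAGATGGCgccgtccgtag
Ndufb8, chr19:44555393-44555422, minus strand: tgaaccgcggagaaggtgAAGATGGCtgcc
Ndufs7, chr10:80249462-80249491, plus strand: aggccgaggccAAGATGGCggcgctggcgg
Ndufa9, chr6:126849097-126849126, minus strand: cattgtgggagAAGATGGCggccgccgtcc
Ndufs4, chr13:114388045-114388074, minus strand: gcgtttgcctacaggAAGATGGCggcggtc
Ndufs6, chr13:73328433-73328462, minus strand: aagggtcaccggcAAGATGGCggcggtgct
Tmem126b, chr7:90475960-90475989, minus strand: cgtgaggcgctAAGATGGCggcgtcccagc

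The 7 subunits with this motif ranged from -1.55 (Ndufa3) to -0.93 (Ndufs4), with a median of -1.33, and the other 29 had a median of -1.15. The 29 include subunits whose promoters were not searched, among them Ndufs1 (-1.07), Ndufb9 (-1.04) and Ndufa2 (-0.82). All of these changed less than that median, so the 2 medians do not compare searched subunits alone. The motif thus occurred in subunits near both ends of the range, and Tmem126b was among the least changed factors.

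The NRF1 core GCGCATGC was in 3 subunit windows (9.38%) and 2 factor windows (18.2%), against 2.71% of all windows. The subunits were Ndufa8, Ndufa6 and Ndufa11, whose log2 fold changes were -1.22, -1.30 and -0.85. Their matches are shown, again on the gene's strand, as letters of the reverse complement in capitals.
Ndufa8, chr2:36049328-36049357, minus strand: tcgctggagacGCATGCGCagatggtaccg
Ndufa6, chr15:82354356-82354385, minus strand: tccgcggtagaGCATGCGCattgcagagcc
Ndufa11, chr17:56717693-56717722, plus strand: ctgcactgcgcGCATGCGCgcacgccttgt

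The nuclear receptor element AAGGTCA, which oestrogen-related receptors such as Esrra bind in an extended form, was in 3 subunit windows (9.38%) against 4.72% of all windows, and in no factor window. Its extended form TCAAGGTCA, which contains the shorter one, was in none of the member windows and in 0.420% of all. The 3 subunits changed by like amounts, from -1.22 for Ndufb2 to -1.14 for Ndufb4, with Ndufs5 between them. The first pair is shown with the element in capitals.
Ndufb2, chr6:39592373-39592402, plus strand: ggagcagcagtAAGGTCAgccaagagcacc
Ndufb4, chr16:37654405-37654434, minus strand: tcctgagcctgAAGGTCAgactcgagaggg
The ETS site CCGGAAG was in 4 subunit windows (12.5%) and 3 factor windows (27.3%), against 8.86% of all. Timmdc1, which overlapped between genotypes, was among those factors. No promoter table entry was matched for Ndufs1, Ndufb9, Ndufa2, Ndufaf6 and Acad9.

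Some counts are less certain than others. For 18 of 49 members, a stretch of 50 bases within the last 500 of a transcript also occurs in transcripts of other genes. For most of the 18 these were 1 or 2 genes, and multiple alignments were counted. Ndufaf7 shared such stretches with 283 genes, Timmdc1 with 112, Acad9 with 9 and Ndufab1 with 6. The 15 subunits that share sequence had a median log2 fold change of -1.21 and the 21 that do not had one of -1.14. For 6 members (Ndufa2, Ndufa3, Ndufb2, Ndufb6, Ndufaf2 and Ndufaf3), an exon of a gene on the opposite strand overlaps the 3′ end, and whether reads were counted by strand is not given in the sources used here.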

How the data were processed

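BAT RNA of 3 WT and 3 Letmd1 KO mice was made into QuantSeq 3′ libraries. Bowtie2 was the aligner, and gene counts, in which multiple alignments were kept, were made with bedtools. The authors deposited these as raw whole-number counts, 1 file for each mouse. The submitters' processing notes name the build mm10. The annotation and the use of strand are not given in the sources used here. Samples were grouped by the genotype in their labels.

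The tools were edgeR 4.0.16, DESeq2 1.42.0 and limma 3.58.1, run in R 4.3.3. Genes passing edgeR's default filter (minimum count 10, minimum total 15) were fitted across all 6 mice with TMM scaling and the quasi-likelihood test, with p-values adjusted over all genes (Benjamini-Hochberg, threshold 0.05). That left 12995 of 23282 rows for testing; 5588 were at 0 in all mice and 35 symbols stood on more than 1 row. Between 2.76% and 5.51% of counts were to the ribosomal RNA gene Rn45s and stayed in the library sizes. Log2 levels per mouse used a prior count of 2. Alternatives were library size alone, DESeq2, quantile normalization of log2 CPM with limma, other filters, a threshold of 0.01, the replicate number as a block, a muscle covariate, and leaving out each mouse. Scaling to the summed subunits and counting 1810043H04Rik as Ndufaf8 were added after seeing the data.

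The steps were tested on simulated data. The members, classes and lists were chosen with earlier results of these data known. Every member of a class of up to 9 genes is named, and in larger classes the 3 most and 3 least changed, those that missed the threshold and those whose call was lost without 1 mouse. One member by itself is not reported here, but counts, medians and sums include it. Some are also named for a motif or for overlapping sequence. Mice are the replicates, and p-values measure only the spread between these 6. No mouse repeated another: within a genotype, chi-square per degree of freedom was at least 11.5 for any pair. Intervals from 3 counts cover counting error only. GENCODE vM21 (GRCm38) gave positions for all 49 members, and RefSeq (GRCm38.p6) the promoters.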

Additional observations from a re-analysis of the deposited data

How the results depend on the processing

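The subunits were lower under every alternative run. All 36 passed under library size alone, DESeq2, both other filters, the threshold of 0.01, the muscle covariate, the replicate block and without any 1 mouse, and 34 passed after quantile normalization. Of all 12995 genes, 1368 were lower under library size alone and 3078 after quantile normalization. Medians moved most with the scaling. With library size alone they were -0.66 over all members, -0.74 over subunits, -0.80 for the membrane arm (proximal -0.79, distal -0.81), -0.68 for the matrix arm (core -0.67, accessory -0.69) and -0.30 for the assembly factors, of which 4 passed. After quantile normalization they were -0.77 over all members, -0.77 over subunits, -0.85 for the membrane arm (proximal -0.86, distal -0.84) and -0.64 for the matrix arm (core -0.77, accessory -0.55). Library size alone leaves out the TMM factors, which were 0.86, 0.89 and 0.85 in WT and 1.17, 1.13 and 1.17 in KO. Why these factors differ by genotype, and why quantile normalization moved the medians, was not tested. With the muscle covariate the proximal median was -1.35 and the factor median -0.85, Acad9 (adjusted p = 0.0537) and Tmem126b (adjusted p = 0.0754) lost their calls and Ndufaf6 gained one (adjusted p = 0.0296, edgeR).

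Without 1 mouse, the median ran from -1.21 to -1.02 over all members, the lowest without KO 3, and from -1.35 to -1.18 for the proximal subunits. Passing factors numbered between 9 and 11. Relative to the summed subunits, between 1 and 5 subunits were lower, between 1 and 6 higher, and between 6 and 9 factors higher. Without WT 1 or WT 2, 1 subunit was lower and 1 higher, without WT 3, 2 were lower, and without KO 1, 6 factors were higher. The sign of Timmdc1 turned to 0.24 with library size alone, where the calls of Ndufaf1, Ndufaf2, Ndufaf3, Ndufaf5, Acad9 and Tmem126b were also lost. With 1810043H04Rik counted as Ndufaf8, 11 of 14 factors were lower.

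Same-numbered mice did not deviate together (correlations 0.07, -0.11 and -0.09), and WT 2 with KO 3, of unlike number, reached 0.19. With 3 mice per genotype, these values cannot tell whether same-numbered mice were related or handled together. With the replicate block, 46 members became 45: Tmem126b was at -0.51 with an adjusted p of 0.0528 by edgeR, and no other member's call changed. At these depths the least counted factors, Nubpl, Tmem126b and Ndufaf6, had standard errors between 0.16 and 0.21.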

Other observations

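Genes that supply iron-sulfur clusters, on which the matrix arm depends, spanned a wider range of changes than the complex I subunits. Of 14 tested, 9 were lower and 1 higher by edgeR's quasi-likelihood test, beside 22.3% and 23.7% of all genes, with a median log2 fold change of -0.65. The most negative were Isca1 (-1.45, SE 0.10), Bola3 (-1.39, SE 0.12) and Isca2 (-1.33, SE 0.11). Iba57 was at -0.86, the scaffold gene Iscu at -0.80 and Nfs1 at -0.50. With libraries scaled to their total alone, Nfs1 (-0.08, adjusted p = 0.598, edgeR) and Hscb (-0.04, adjusted p = 0.831, edgeR) did not pass. Isca1, Bola3, Isca2, Iba57 and Iscu still did. Fdxr passed as higher under that scaling (0.59, adjusted p = 0.0219, edgeR) but not with TMM scaling (0.17, adjusted p = 0.464, edgeR). Nfu1 was at -0.23 (adjusted p = 0.144) and Lyrm4 at -0.10 (adjusted p = 0.700), and neither passed. Hspa9, the mitochondrial chaperone of the HSP70 family, was higher, at 1821 CPM in KO and 1278 CPM in WT (0.51, SE 0.15, adjusted p = 0.0199).

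Among known regulators of respiratory chain genes, 3 of 10 tested were lower and 1 higher, beside 22.3% and 23.7% of all genes. The lower ones were Ppargc1b (-1.08, SE 0.16), Tfam (-0.63, SE 0.12) and Esrra (-0.44, SE 0.10). With libraries scaled to their total alone, Ppargc1b still passed. Tfam (-0.21, adjusted p = 0.179, edgeR) and Esrra (-0.02, adjusted p = 0.908, edgeR) did not, and Gabpa, Gabpb1 and Pprc1 passed as higher. Under that scaling, 5899 of all 12995 genes were higher. After quantile normalization, Ppargc1b and Tfam passed and Esrra did not (adjusted p = 0.0651, limma). Nrf1 was higher, from 13.4 to 23.4 CPM (0.81, SE 0.19, adjusted p = 0.00786, edgeR). Ppargc1a was at -0.52 (adjusted p = 0.0906), Gabpa at 0.07 (adjusted p = 0.734) and Yy1 at -0.22 (adjusted p = 0.286). All 3 supercomplex factors were lower, Higd1a at -1.27, Higd2a at -1.14 and Cox7a2l at -0.60. Cox7a2l did not pass with libraries scaled to their total alone (adjusted p = 0.241, edgeR) or after quantile normalization (adjusted p = 0.0669, limma). Higd1a and Higd2a passed in both.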
